A study of Mus musculus with 19 samples.

Results

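The genes described here are the nuclear genes that encode subunits of respiratory complexes I, III and IV and of the ATP synthase, also called complex V. They were chosen by symbol, as protein-coding genes whose names begin with Nduf followed by a subunit letter (a, b, c, s or v) and a number, with Uqcr, with Cox and a number from 4 to 8, or with Atp5. This rule was met by 76 of the 26506 genes counted, with 36 in complex I, 7 in complex III, 16 in complex IV and 17 in complex V. Gene identifiers, with versions dropped, were looked up in GENCODE M21, where 81 genes meet the rule, and Ndufs3, Uqcrc1, Cox7b2, Cox8c and a second identifier of Atp5o were not analysed here. Ndufa4 and Ndufa4l2 are counted with complex I because their symbols place them there, although the Ndufa4 protein is now known as a subunit of complex IV.

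The libraries were made from poly(A)-selected RNA of whole, homogenized kidney and liver of male mice. Knockout mice were homozygous for deletion of exon 6b of the macroH2A1 gene (H2afy), which removes the splice isoform macroH2A1.1 in all cells and leaves macroH2A1.2. The deletion was made by treating zygotes that carried a floxed exon 6b with soluble Cre. Wild-type and knockout mice came from matings of heterozygotes, on C57BL/6J after at least 10 backcross generations. Kidney was measured in 5 knockouts (mice 13, 14, 15, 16 and 18) and 5 wild types (mice 19, 20, 22, 23 and 24), and liver in the same mouse numbers except wild-type 23, whose liver was not analysed here. The labels give no age, and for the diet they name both a standard and a ketogenic one without saying which mouse received which. Mouse numbers differ within a group, but the labels do not state how the libraries relate to animals, and each p-value reflects only library-to-library spread, which may be technical.

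The respiratory chain passes electrons from NADH and ubiquinol to oxygen and pumps protons out of the mitochondrial matrix, and the ATP synthase uses the returning protons to make ATP. Each complex is assembled from many nuclear-encoded subunits and, in complexes I, III, IV and V, also from subunits encoded by the mitochondrial genome. Proximal tubules of the kidney depend on this pathway for reabsorption of solutes, and hepatocytes use it for gluconeogenesis and urea synthesis. Nuclear factors such as NRF1, the ETS factor GABP (also called NRF2) and YY1 are textbook regulators of many of these promoters.

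Promoters are shown for 4 members that the results return to: Ndufs5 and Atp5k, which had the letters of these factors and were among the lowest kidney members or highest liver members in knockouts, and the pair Cox8a and Cox8b, a ubiquitous and a muscle and brown-fat isoform of the same subunit. Each sequence spans 300 bases, from 250 before to 50 after the transcription start, on the strand of the gene, and comes from RefSeq on GRCm38.p6. The windows lie on the minus strand at chr4:123718137-123718436 for Ndufs5, chr5:108434350-108434649 for Atp5k, chr19:7217567-7217866 for Cox8a and chr7:140900397-140900696 for Cox8b. Capitals mark matches, on either strand, to the NRF1 letters (GCGC and TGCGC separated by any 1 base, which read GCGCA, any base, GCGC on the other strand), the ETS letters CCGGAAG or the YY1 letters AAGATGGCG.
Ndufs5: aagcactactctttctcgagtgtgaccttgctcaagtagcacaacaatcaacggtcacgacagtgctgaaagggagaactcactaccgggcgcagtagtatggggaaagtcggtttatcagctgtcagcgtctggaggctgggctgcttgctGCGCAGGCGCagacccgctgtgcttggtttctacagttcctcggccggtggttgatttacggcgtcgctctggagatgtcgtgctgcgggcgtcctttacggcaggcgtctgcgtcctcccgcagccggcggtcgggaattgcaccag
Atp5k: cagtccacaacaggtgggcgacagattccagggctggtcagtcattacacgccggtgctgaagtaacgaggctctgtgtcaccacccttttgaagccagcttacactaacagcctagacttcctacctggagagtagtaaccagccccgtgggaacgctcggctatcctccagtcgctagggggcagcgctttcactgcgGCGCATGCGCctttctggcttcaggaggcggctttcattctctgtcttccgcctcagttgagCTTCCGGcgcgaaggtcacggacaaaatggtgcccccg
Cox8a: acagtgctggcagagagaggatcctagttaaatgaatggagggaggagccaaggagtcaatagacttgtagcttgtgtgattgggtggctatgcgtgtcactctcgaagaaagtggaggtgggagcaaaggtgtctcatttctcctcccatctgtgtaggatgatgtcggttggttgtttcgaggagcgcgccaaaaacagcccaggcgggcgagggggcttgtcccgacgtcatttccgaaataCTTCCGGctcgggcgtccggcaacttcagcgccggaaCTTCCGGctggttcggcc
Cox8b: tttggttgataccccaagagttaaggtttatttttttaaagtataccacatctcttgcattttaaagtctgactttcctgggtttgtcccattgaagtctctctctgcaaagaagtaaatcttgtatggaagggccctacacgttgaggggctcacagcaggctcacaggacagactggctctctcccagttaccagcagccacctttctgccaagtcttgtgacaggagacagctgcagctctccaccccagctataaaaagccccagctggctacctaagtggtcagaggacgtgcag

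Ndufs5 held 1 NRF1 match, Atp5k 1 NRF1 and 1 ETS match and Cox8a 2 ETS matches, and the Cox8b window held none of these letters. In the isoform pair Cox7a2 and Cox7a1, ubiquitous and muscle, neither window held any of them. A promoter was matched for 62 of the 76 members. The NRF1 letters were found in 14 of these 62 (22.6%), among them Ndufa5, Ndufs6 and Atp5g3. This compares with 5.19% of 27025 genes with a promoter and 10.3% of the 11263 such genes that were protein-coding and tested in kidney. The ETS letters were found in 13 (20.97%), against 9.93% and 17.99%, and the YY1 letters in 7 (11.3%), against 1.64% and 3.21%. The ERR letters TCAAGGTCA were found in 1 member, Atp5g3 (1.61%), against 0.466% and 0.329%. In all, 29 of the 62 members held at least 1 of the NRF1, ETS and YY1 matches. The share of all genes with at least 1 of them was not taken, so this count has no background. A match is a description of the letters, and its absence says only that they are not in this window.

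Values below are CPM, read counts divided by the library size after TMM scaling within the tissue. Total counts were 25919138 to 35131720 in kidney libraries and 26084473 to 34806035 in liver libraries. Reads of H2afy, the targeted gene, were counted over all its exons and so include macroH2A1.2. They were 49.0 to 61.1 CPM in knockout kidneys and 65.6 to 90.8 in wild types, and 42.9 to 52.9 in knockout livers and 53.5 to 86.4 in wild types. The lowest wild-type value in both tissues was that of the library labelled wild-type 24, at 65.6 in kidney and 53.5 in liver. The liver value lay next to the highest knockout, at 52.9, so H2afy leaves the genotype label of mouse 24 in doubt. Liver changes of some members are also given without this library, and the other single-member liver changes include it. The tissues carried their own markers. The 8 hepatocyte genes summed to 88528 to 112766 CPM in the livers and 76.2 to 145 in the kidneys. The 12 proximal tubule genes summed to 15468 to 18195 in the kidneys and 1215 to 1815 in the livers. Most of that liver sum came from Slc27a2 and Hnf4a, with means of 964 and 479 CPM in knockouts and 923 and 495 in wild types. Slc34a1, Slc5a12 and Slc22a8 were at or near 0 in liver. All 6 fibroblast and stellate cell markers had a log2 fold change (knockout over wild type) below 0 in both tissues (medians -0.11 and -0.12). The proximal tubule marker Slc34a1 was -0.25 in kidney (unadjusted edgeR p 0.00709, adjusted p 0.999), with every knockout below every wild type. Others of that list were higher, such as Slc5a12 at 0.31. In liver the immune marker Lyz2 was -0.41, and C1qa, of the same list, 0.03. The part of these markers' cells in the members' values was not tested.

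Departures of more than 1 log2 unit from the mean of the other libraries of the group occurred in 2 libraries for members other than Cox8b. Cox8b, a low and variable gene in kidney, departed that far in 6 other kidneys, from -2.68 in knockout 13 to 1.33 in knockout 15. In the kidney of knockout 18, 5 members lay more than 1 log2 unit below the mean of the other 4 knockout kidneys: Uqcrb by 1.92, Atp5l by 1.65, Cox7b by 1.63, Cox7a1 by 1.2 and Atp5k by 1.04. In CPM, Uqcrb, an accessory subunit of complex III, was 56.5 there and 182 to 253 in the other 9 kidneys. Ndufs7 was 316 CPM there and at most 234 elsewhere, and it lay 0.81 above the other knockouts. The departure was related in part to the base composition of the transcripts. All 7 members with an exon GC content under 45% were below the other knockouts, with a median of -0.36. Of the 22 above 55%, 14 were above the other knockouts, with a median of 0.12. Of the 47 from 45% to 55%, 27 were below and 20 above, with a median of -0.08. Atp5l, Atp5k and Cox7a1 were among these 47. Across the 76 members the correlation of departure with GC was 0.51, and across 14382 protein-coding genes it was 0.42. In the other 9 kidneys it ran from -0.38 to 0.14 over members, and in the livers from -0.11 to 0.12. These correlations are over genes of 1 library, which are not independent.

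**Figure D1:**
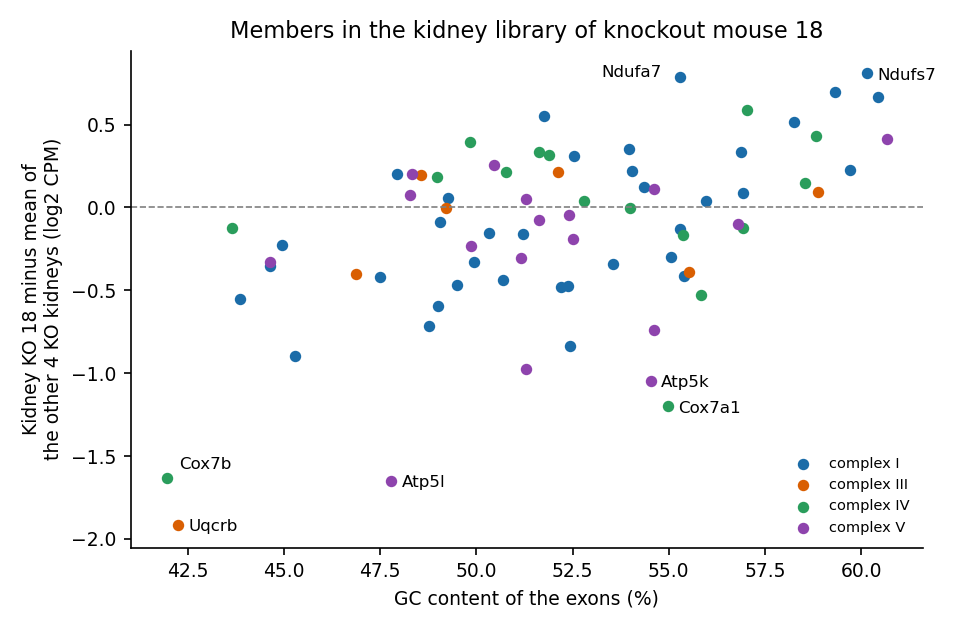
Departure of each of the 76 members in the kidney of knockout 18 from the mean of the other 4 knockout kidneys (log2 CPM) against the GC content of its exons (percent), coloured by complex. Uqcrb, Atp5l and Cox7b lie more than 1.5 units below 0, and Ndufs7 and Ndufa7 lie 0.81 and 0.79 above it.

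In the liver of the library labelled wild-type 24, Atp5k (subunit e of the ATP synthase) was 44.5 CPM against 94.4 to 129 in the other 3 wild types, and it lay 1.36 log2 units below their mean. Ndufa2, Uqcr11 and Ndufa3 lay 0.97, 0.78 and 0.73 below, whereas Atp5l lay 0.47 above. The correlation with GC was -0.11 in this library. Without mouse 24 the liver changes in knockouts were 0.15 for Atp5k, 0.19 for Ndufa1, 0.18 for Ndufa3 and 0.12 for Cox5b. With it they were 0.39, 0.34, 0.34 and 0.27. Leaving it out also moved Ndufb3 from 0.37 to 0.22, Uqcr11 from 0.25 to 0.085 and Uqcrq from 0.21 to 0.13. Cox8a went from 0.18 to 0.07 and Atp5g3 from 0.23 to 0.13. In the other direction, Atp5l went from 0.03 to 0.15 and Atp5g2 from -0.02 to 0.04. Counts without these mice are given where they move.

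In kidney, 66 of the 76 members had a log2 fold change below 0 in knockouts, and the shift was small. The median log2 fold change, knockout over wild type, was -0.09, and the median standard error of a member was 0.11. All 7 members of complex III and all 17 of complex V lay below 0, as did 29 of 36 in complex I and 13 of 16 in complex IV. Over all 17269 genes tested in kidney 47.8% lay below 0, and their median was 0.01. No member passed an adjusted p of 0.05 with edgeR, DESeq2 or limma voom, in a table where 0.00579% of genes passed with edgeR. With edgeR 1 member, Cox6a2, had an unadjusted p under 0.05, against 2.95% of all genes. Without wild-type 19 the count of lower members fell to 51 of 76 (median -0.05), and without knockout 13 to 48 (median -0.05). Without mice 18 and 24 it was 68.

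The medians by complex were -0.08 for complex I, -0.09 for complex III, -0.05 for complex IV and -0.11 for complex V. The complex IV median became 0.02 without knockout 13. In bulk tissue, fewer cells of a type and less RNA per cell cannot be told apart.

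**Figure D2:**
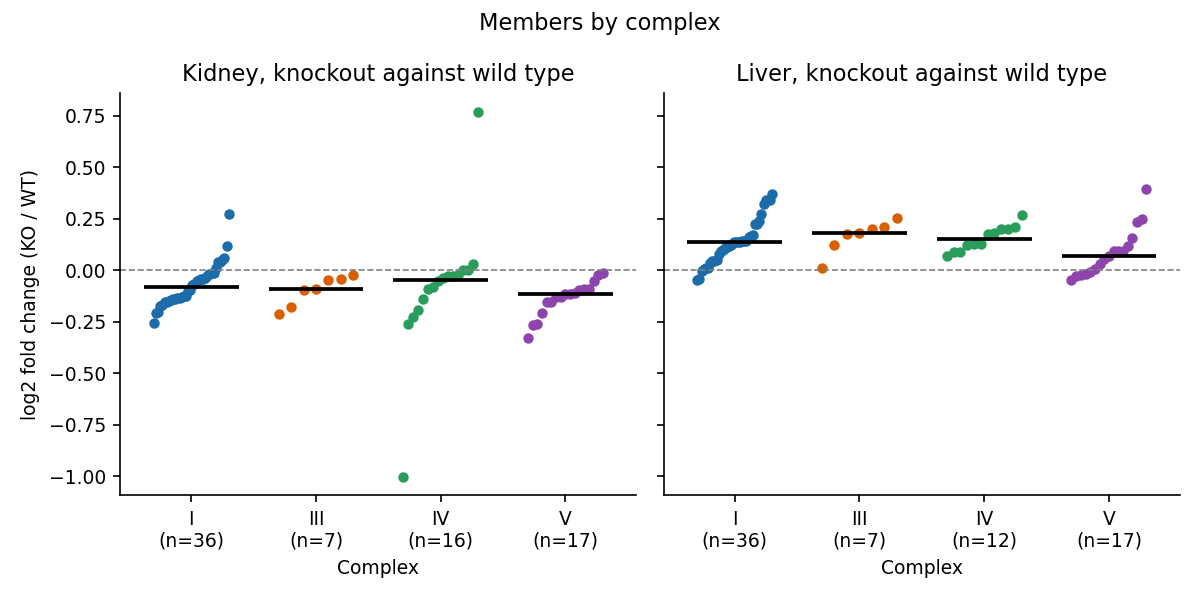
The log2 fold change (knockout over wild type) of each member tested, by complex, in kidney and in liver, with points in order of size and a line at each median. The kidney medians lie between -0.11 and -0.05 and the liver medians between 0.07 and 0.18, and Cox6a2 at -1.005 and Cox8b at 0.77 stand apart in kidney.

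Complex I takes electrons from NADH through a matrix arm that carries the flavin and the iron-sulfur clusters. The lowest p in this complex belonged to Ndufs5, an accessory subunit, which was 73.9, 102, 93.9, 80.5 and 48.6 CPM in knockout kidneys 13, 14, 15, 16 and 18. It was 102, 97.9, 88.8, 96.4 and 91.6 CPM in wild types 19, 20, 22, 23 and 24. Knockouts 13, 16 and 18 lay below every wild type, and knockouts 14 and 15 lay among them. The log2 fold change was -0.26 (SE 0.15), and with edgeR p was 0.103 and adjusted p 0.999. Ndufb5, an accessory subunit of the membrane arm, was 155 ± 33.5 CPM (SD, n = 5) in knockouts, and wild types had 178 ± 13.6 (SD, n = 5), which is -0.20 on the log2 scale. It shares 616 exonic bases with Mrpl47 on the opposite strand, and no source used here says whether counting used the strand, so reads of the pair cannot be told apart. The 6 core subunits analysed had a median of -0.03, and the 30 other members of the complex had a median of -0.10. Values for core subunits were -0.21 for Ndufv2, -0.13 for Ndufs1, -0.03 for Ndufv1, -0.04 for Ndufs8 and 0.12 for Ndufs7. Without mouse 18 they were -0.065, -0.052, -0.10, -0.054 and -0.079, in the same order. Ndufs5 and Ndufb5 had -0.12 and -0.086 without it. Ndufv1 holds the flavin and was 336 ± 39.3 CPM in knockouts and 343 ± 35.7 in wild types (SD, n = 5 each). In the opposite direction, Ndufa4l2, a hypoxia-responsive relative of Ndufa4, was 9.69 ± 2.61 CPM in knockouts and 8.02 ± 2.01 in wild types (SD, n = 5 each). Its log2 fold change was 0.27 (SE 0.19), the groups overlapped, and without mouse 18 the change was 0.10.

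Complex III passes electrons from ubiquinol to cytochrome c. Its small subunit Uqcr10 was 226, 300, 314, 258 and 207 CPM in knockout kidneys 13, 14, 15, 16 and 18, and 309, 321, 266, 293 and 288 in wild types 19, 20, 22, 23 and 24. Again knockouts 13, 16 and 18 were the low ones, and the groups overlapped. The difference was -0.18 on the log2 scale (SE 0.11), and without mouse 18 it was -0.11. Uqcrb had the largest change in this complex, -0.21 with an SE of 0.32, and without mouse 18 it was 0.021. Uqcrfs1, the Rieske iron-sulfur protein, was 481 ± 37.0 CPM in knockouts and 489 ± 30.4 in wild types (SD, n = 5 each). Uqcrc2, a core protein, had a log2 fold change of -0.09 and Uqcrh, the hinge protein, -0.10.

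Complex IV, cytochrome c oxidase, reduces oxygen, and several of its small subunits exist as paired isoforms. Cox6a2, the heart and skeletal muscle isoform of subunit 6a, was the only member whose kidney groups did not overlap. It was 0.538, 0.536, 0.548, 0.742 and 0.604 CPM in knockouts 13, 14, 15, 16 and 18, from 15 to 20 counts a library. It was 1.32, 1.05, 1.41, 1.18 and 1.01 CPM in wild types 19, 20, 22, 23 and 24, from 27 to 42 counts. Every knockout lay below every wild type, which held for 0.272% of all kidney genes. Knockouts differed by -1.005 on the log2 scale (SE 0.24, n = 5 each), with edgeR p 0.000644 and adjusted p 0.654, so it did not pass the threshold. Over the alternatives that tested it, the adjusted p ran from 0.202 with DESeq2 to 1, and the log2 fold change from -1.15 to -0.94. Cox6a2 lies at chr7:128205435-128206387 on the minus strand (GRCm38) and shares 70 exonic bases with Itgad, the integrin alpha-D gene of the opposite strand, which was 0 to 0.151 CPM in these kidneys. Skeletal muscle markers were low in these kidneys, and 3 of the 4 tested of 10 in the table had a log2 fold change below 0 in knockouts (median -0.50). Acta1, skeletal actin, had -1.04 (unadjusted edgeR p 0.0350, adjusted p 0.999) and Myl1, a myosin light chain, -0.94. The list summed to 24.9 to 39.4 CPM in knockouts and 28.0 to 38.1 in wild types, most of it from Pvalb, which the distal tubule also expresses. Ckm was 0 to 0.242 CPM in knockouts and 0 to 0.373 in wild types, and Myh2 was at 0 in every knockout and at most 0.0747 in wild types. The part of muscle RNA in the Cox6a2 values was not tested. The ubiquitous isoform Cox6a1 was 744 ± 130 CPM in knockouts and 755 ± 78.0 in wild types (SD, n = 5 each), or -0.02 in log2 terms.

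Cox8b, the muscle and brown-fat isoform of subunit 8, had the highest fold change of the complex in kidney. It was 0.633, 4.58, 6.4, 5.70 and 2.23 CPM in knockouts 13, 14, 15, 16 and 18, and 0.877, 3.95, 1.30, 3.61 and 1.53 in wild types 19, 20, 22, 23 and 24. The groups overlapped, and the log2 fold change was 0.77 (SE 0.60). Brown-fat markers varied over the same libraries. Ucp1, the uncoupling protein of brown fat, was 1.33, 8.19, 7.71, 13.7 and 3.29 CPM in those knockouts and 1.03, 2.33, 2.32, 3.76 and 0.299 in those wild types, a log2 fold change of 1.78 (SE 0.69) with an unadjusted edgeR p of 0.0295 and adjusted p of 0.999. Of 5 brown-fat markers 3 passed the filter on low counts; Ucp1 and Cidea were higher and Dio2 lower in knockouts. The 5 summed to 3.36 to 25.01 CPM in knockout and 3.14 to 11.0 in wild-type kidneys, and their part in the Cox8b values was not tested.

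The other isoforms of complex IV moved less. Cox7c, a small subunit that has no paired isoform, was 388 ± 46.6 CPM in knockout and 426 ± 39.9 in wild-type kidneys (SD, n = 5 each), with a log2 fold change of -0.14. Values were 0.03 for Cox4i1 and -0.00049 for Cox4i2, -0.04 for Cox6b1 and -0.23 for the testis isoform Cox6b2, and -0.03 for Cox7a2 and -0.19 for the muscle isoform Cox7a1. Cox8a, the ubiquitous partner of Cox8b, had -0.03, and Cox7a2l, a supercomplex assembly factor, 0.0022. Cox7b had -0.26 with an SE of 0.27, and without mouse 18 it had -0.049. Knockout 18 was again lowest at 89.0 CPM, with the other 9 kidneys at 242 to 321. Without mouse 18 the other values were -0.10 for Cox4i1, 0.03 for Cox4i2, -0.12 for Cox6a1 and -0.11 for Cox6b1. They were -0.19 for Cox6b2, -0.09 for Cox7a2, -0.015 for Cox7a1, -0.06 for Cox8a and -0.08 for Cox7a2l.

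Complex V joins the catalytic F1 head to the proton channel. Atp5f1, subunit b of the peripheral stalk, had the lowest p of the complex in kidney. It was 521, 556, 603, 555 and 444 CPM in knockouts 13, 14, 15, 16 and 18 and 650, 610, 545, 560 and 617 in wild types 19, 20, 22, 23 and 24. Knockouts 13 and 18 lay below all wild types, and the groups overlapped. The log2 fold change was -0.15 (SE 0.09), and with edgeR p was 0.113 and adjusted p 0.999. Without mouse 18 the change was -0.094. Atp5l, subunit g, had the largest change, -0.33 (SE 0.29), from 50.7 CPM in knockout 18 and 121 to 192 in the other knockouts, against 156 to 198 in wild types. Without mouse 18 its change was -0.12. The catalytic subunit Atp5b was 2484 ± 270 CPM in knockouts and 2646 ± 340 in wild types (SD, n = 5 each), and Atp5a1, the other subunit of the F1 hexamer, 1508 ± 194 and 1632 ± 218. Among the 3 genes for the proton-carrying c ring, Atp5g2 had -0.16, Atp5g1 -0.10 and Atp5g3 -0.02. Without mouse 18 they had -0.13, -0.10 and -0.07, in the same order. Close relatives such as these may share reads, depending on how the authors counted reads that map to several genes. Atp5f1 shares 337 exonic bases with Wdr77 on the opposite strand.

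In liver the members leaned the other way. Of the 72 members tested, 64 had a log2 fold change above 0 in knockouts, and the median was 0.13 with a median standard error of 0.15. Over all 14591 genes tested in liver 51.3% lay above 0, with a median of 0.00. The 4 members Cox4i2, Cox6a2, Cox6b2 and Cox8b did not pass the filter on low counts. By complex, 33 of 36 members of complex I, 7 of 7 of complex III, 12 of 12 tested of complex IV and 12 of 17 of complex V lay above 0, with medians of 0.14, 0.18, 0.15 and 0.07. No member passed an adjusted p of 0.05 with edgeR, DESeq2 or limma voom, where 0% of liver genes passed with edgeR. No member had an unadjusted p under 0.05 with edgeR, against 4.17% of all liver genes. In no member did every knockout lie above every wild type, which 0.795% of all liver genes did.

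The liver count rested on a few libraries. Without mouse 18 it was 44 of 73 higher, with a median of 0.03, and without mouse 22 it was 52 of 73, with a median of 0.04. Leaving out mouse 13 moved the median up, to 0.20. With mice 18 and 24 both left out, a choice made after the values were seen, 42 of 73 were higher and the median was 0.01. The complex V median was below 0 without mouse 18 or without mouse 22, at -0.0098 and -0.0011.

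In complex I the smallest liver p belonged to Ndufa1, an X-linked accessory subunit needed to assemble the membrane arm. It was 77.9, 83.0, 101, 97.2 and 125 CPM in knockout livers 13, 14, 15, 16 and 18 and 92.7, 93.9, 66.3 and 52.1 in wild types 19, 20, 22 and 24. Knockouts 15, 16 and 18 lay above every wild type, and wild types 22 and 24 lay below every knockout. The log2 fold change was 0.34 (SE 0.19), and with edgeR p was 0.0904 and adjusted p 0.9998. Ndufa3, another accessory subunit, was 103, 118, 148, 123 and 161 CPM in those knockouts and 128, 126, 90.8 and 68.4 in those wild types, also 0.34 (SE 0.19). Ndufb3 had the largest change of the complex, 0.37 (SE 0.22), from 89.4 ± 24.5 CPM (SD, n = 5) against 69.2 ± 19.1 (SD, n = 4). The core subunits had a median of 0.02, with 0.04 for Ndufs7 and Ndufv2, 0.01 for Ndufv1, -0.0023 for Ndufs1 and -0.05 for Ndufs8. The 30 other members of complex I had a median of 0.14, and 29 of them lay above 0.

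In complex III, Uqcrb was 143, 156, 191, 175 and 217 CPM in knockout livers 13, 14, 15, 16 and 18 and 167, 178, 139 and 141 in wild types 19, 20, 22 and 24. Knockouts 13, 14 and 16 lay within the wild-type range. Its log2 fold change was 0.18 (SE 0.13). Uqcr11, a small subunit of the complex, had 0.25 (SE 0.22) and Uqcrq, another, 0.21 (SE 0.17). Uqcrfs1 had 0.12 and Uqcrc2 0.01.

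For complex IV, Cox5b was lowest in the library labelled wild-type 24. It was 224, 241, 303, 270 and 317 CPM in knockout livers 13, 14, 15, 16 and 18, and 256, 275, 213 and 154 in wild types 19, 20, 22 and 24, with a log2 fold change of 0.27 (SE 0.16). Cox7c was 381 ± 73.8 CPM in knockouts (SD, n = 5) and 329 ± 51.4 in wild types (SD, n = 4), which is 0.21 on the log2 scale. The isoforms tested gave 0.12 for Cox4i1, 0.18 for Cox6a1, 0.20 for Cox6b1, 0.13 for Cox7a2 and Cox7a2l, 0.09 for Cox7b, 0.18 for Cox8a and 0.20 for Cox7a1. All lay above 0 and none passed the test.

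Skeletal muscle markers were also higher in knockout livers. All 7 tested of 10 in the table lay above 0, with a median of 2.05, and the list summed to 1.36 to 17.9 CPM in knockouts and 1.33 to 3.37 in wild types. The muscle isoforms Cox6a2 and Cox8b were at 0 to 0.180 and 0 to 0.281 CPM in these livers, and Cox7a1 at 1.24 to 3.51. The share of muscle RNA in the values of the ubiquitous members was not tested.

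In complex V, Atp5k had the largest liver change among all members. It was 93.0, 102, 149, 130 and 170 CPM in knockout livers 13, 14, 15, 16 and 18 and 129, 124, 94.4 and 44.5 in wild types 19, 20, 22 and 24. The low value was that of the library labelled wild-type 24, and the other wild types lay within the range of the knockouts. Knockouts differed by 0.39 on the log2 scale (SE 0.30). Atp5g3, a gene for the c ring, was 589 ± 121 CPM (SD, n = 5) in knockouts and 501 ± 95.9 (SD, n = 4) in wild types, 0.23 (SE 0.17). Atp5b had -0.04, Atp5a1 -0.02 and Atp5g2 -0.02, and these 3 were among the 5 members of complex V that lay below 0.

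An interaction term in 1 fit of all 19 libraries compared the liver change in knockouts with the kidney change, as liver minus kidney. It lay above 0 for 72 of 76 members, with a median of 0.25, against 49.8% of all 18549 genes tested. No member passed an adjusted p of 0.05 with edgeR, DESeq2 or limma voom, where 0% of genes passed with edgeR, and 2 members had an unadjusted p under 0.05 with edgeR, against 4.12% of all genes. Those were Ndufa3, at 0.51 (SE 0.24, p 0.0440), and Ndufa1, at 0.48 (SE 0.23, p 0.0476). Ndufa5, an accessory subunit of the matrix arm, followed at 0.47 (SE 0.24). All had an adjusted edgeR p of 0.9999. Over the alternatives the difference ran from 0.21 to 0.64 for Ndufa3, 0.16 to 0.62 for Ndufa1 and 0.19 to 0.63 for Ndufa5. The liver changes of Ndufa3 and Ndufa1 alone were 0.18 and 0.19 without mouse 24. Of the 72 members tested in both tissues, 55 were lower in knockout kidney and higher in knockout liver, against 22.5% of the 13847 genes tested in both. A further 8 were lower in both, 9 higher in both and 0 the reverse. Without mouse 18 the median difference was 0.09, without mice 18 and 24 it was 0.08, and without mice 16 and 24 or with limma voom it was 0.16.

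The members of all complexes varied together from library to library. For each library a score was taken as the mean over members of log2 CPM minus the gene's mean over all libraries of the tissue. In kidney it was -0.25, 0.13, 0.11, -0.09 and -0.16 in knockouts 13, 14, 15, 16 and 18 and 0.18, 0.13, -0.09, 0.02 and 0.02 in wild types 19, 20, 22, 23 and 24. Knockouts 14 and 15 lay near the top of the wild-type range, and wild-type 22 lay beside knockout 16. In knockout 13 only 4 of 76 members were above their own mean, and in wild-type 19 there were 75. In liver the scores were -0.25, -0.13, 0.17, 0.10 and 0.40 in knockouts 13, 14, 15, 16 and 18 and 0.08, 0.09, -0.28 and -0.17 in wild types 19, 20, 22 and 24. Both the second lowest and the highest liver were knockouts, and the groups overlapped. Of 72 members, 71 were above their mean in knockout 18, 4 in knockout 13, 2 in knockout 14 and 3 in wild-type 22.

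**Figure D3:**
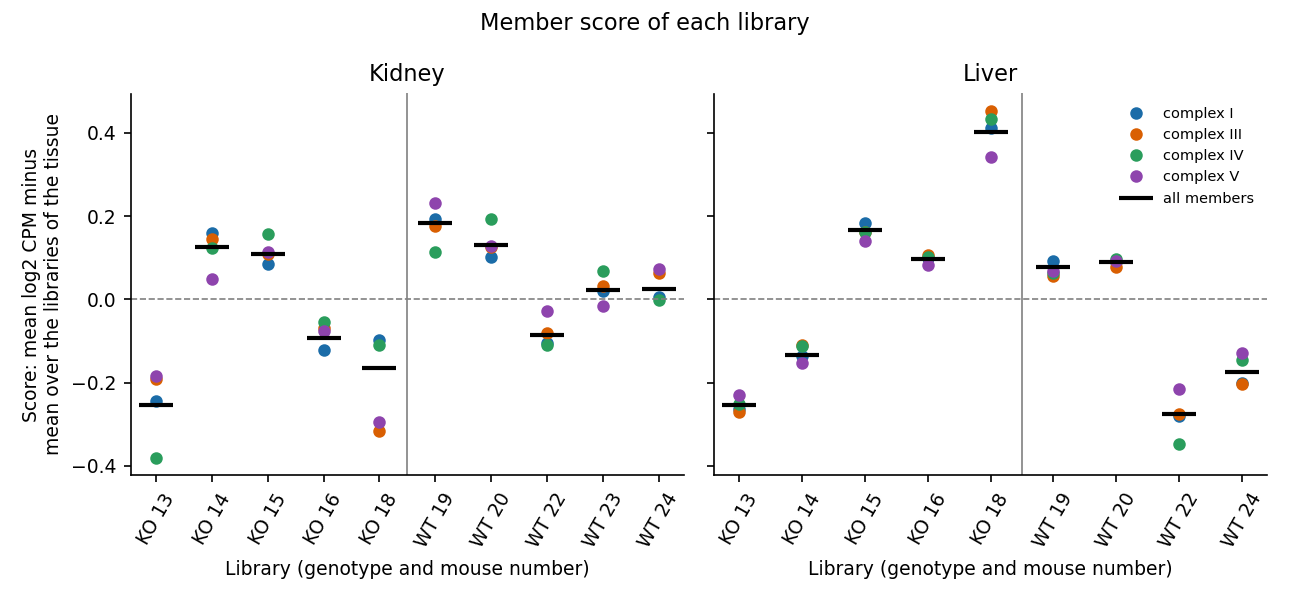
Score of each library (mean log2 CPM of the members, each gene centred on its mean over the tissue), for all members (bar) and by complex (points), with knockouts left and wild types right of the line. Kidney scores of all members run from -0.25 to 0.13 in knockouts and -0.09 to 0.18 in wild types, and liver scores from -0.25 to 0.40 and -0.28 to 0.09.

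Scores by complex were set beside the score of all members. That score contains each complex, so agreement in sign is partly built in. The scores of complexes I and III had the sign of the score of all members in 10 of 10 kidneys and those of complexes IV and V in 9, and all did so in 9 of 9 livers. The library that split most was knockout kidney 18, with -0.32 for complex III and -0.29 for complex V but -0.10 and -0.11 for complexes I and IV. In the liver of knockout 18 the same complexes lay between 0.34 and 0.45. Mouse 13 was low in both tissues, and mouse 22 was low in both among wild types, whereas mouse 18 was low in kidney and highest in liver.

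Ribosomal protein genes moved with the members across libraries. The score of the cytosolic ribosomal protein genes had the same sign as that of the members in 9 of 10 kidneys and 9 of 9 livers. It was lowest in mouse 13 in both tissues, at -0.32 and -0.39, and highest in the liver of knockout 18, at 0.44. Of these genes 75 of 86 were lower in knockout kidney (median -0.08) and 74 of 85 higher in knockout liver (median 0.09), and none passed the threshold. Genes for mitochondrial ribosomal proteins gave 57 of 76 lower in kidney (median -0.05) and 53 of 76 higher in liver (median 0.06). The part of a change common to short or ribosome-related transcripts in the members' values was not tested. By exon length, protein-coding genes under 1000 bases were lower in 59.8% of cases in kidney and 31.7% in liver, with medians of -0.03 and 0.10. The members of that length had medians of -0.04 in kidney (n = 21) and 0.19 in liver (n = 18). In longer kidney genes the members lay further from the others: -0.10 against -0.02 from 1000 to 2000 bases, -0.09 against -0.0099 from 2000 to 4000, and -0.12 against 0.01 above 4000, where 8 of 8 members were lower. The same liver ranges gave 0.13 against 0.04, 0.06 against 0.00 and 0.05 against -0.0014.

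The subunits encoded by the mitochondrial genome mostly did not follow the nuclear ones from library to library. Their score had the opposite sign to that of the members in 7 of 10 kidneys and 7 of 9 livers, as in knockout liver 18 (-0.32 against 0.40) and knockout liver 13 (0.32 against -0.25). In knockouts 11 of 13 were lower in kidney (median -0.10), the direction of most nuclear members there. All 12 tested were lower in liver (median -0.12), where most nuclear members were higher. No gene of the mitochondrial genome passed the threshold. The subunits of the mitochondrial genome summed to 57481 to 94789 CPM in kidneys and 19574 to 38690 in livers. The 76 nuclear members summed to 19769 to 25449 and 13022 to 20317, so the ranges overlapped in liver and not in kidney.

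**Figure D4:**
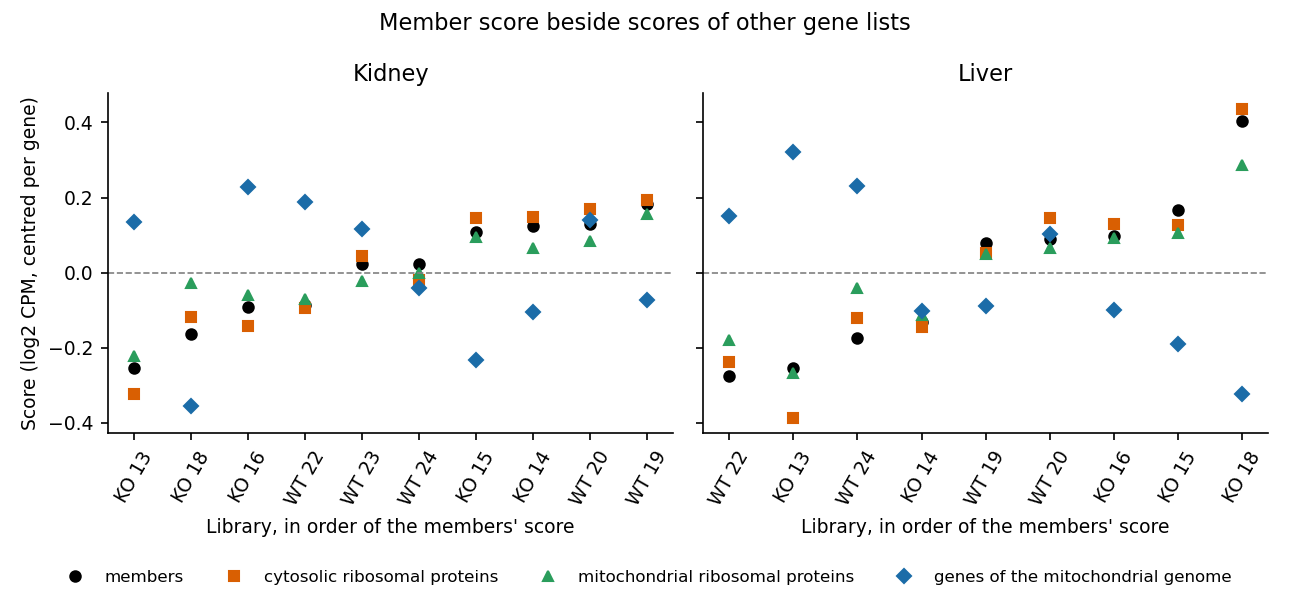
Scores of the members, of cytosolic and mitochondrial ribosomal protein genes and of the genes of the mitochondrial genome in each library (log2 CPM, centred per gene), with libraries in order of the members' score. The ribosomal scores rise with that of the members, and the mitochondrial-genome score lies on the other side of 0 in 7 of 10 kidneys and 7 of 9 livers.

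Other genes of the pathway were described by their counts and medians, and their difference from the members was not tested. Complex II, which is wholly nuclear and feeds electrons from succinate, had 3 of 4 genes lower in kidney (median -0.08) and 3 of 4 higher in liver (median 0.05). Cytochrome c and the other chain proteins gave 5 of 5 lower and 4 of 5 higher. Assembly factors of complex I gave 11 of 16 lower in kidney (median -0.03) and 12 of 16 higher in liver (median 0.05), those of complex III 5 of 6 lower and 3 of 6 higher, those of complex V 4 of 4 lower and 2 of 4 higher, and those of complex IV 10 of 20 lower and 13 of 20 higher. Pet100, an assembly factor of complex IV, was the only one of these with an unadjusted p under 0.05, at 0.51 in liver (SE 0.23, p 0.0455 and adjusted p 0.9998 with edgeR). Of the regulators of mitochondrial biogenesis, 6 of 18 were lower in kidney and 10 of 17 higher in liver, with medians of 0.04 and 0.03. Genes of mitochondrial import and mass gave 10 of 14 lower in kidney (median -0.08) and 11 of 14 higher in liver (median 0.05). None of these genes passed the threshold in either tissue.

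Levels between genes were compared in wild types as CPM per kilobase of exon, with the exons of all annotated transcripts joined, so genes with long rare transcripts are understated. In wild-type kidney (n = 5) the highest members were Cox6a1 at 810 ± 78.8 (SD) and Cox8a at 810 ± 71.6, followed by Atp5b at 470 ± 57.5 and Cox4i1 at 464 ± 44.98. Neither of these neighbouring pairs differed beyond its spread. In wild-type liver (n = 4) Cox6a1 at 979 ± 136 and Cox4i1 at 669 ± 94.6 led, followed by Cox8a at 613 ± 112. Ndufa4 was the highest of complex I in both tissues (253 ± 16.8 and 386 ± 50.4). Uqcr10 was the highest of complex III in kidney (381 ± 25.3) and Uqcr11 in liver (462 ± 139), where Uqcr10 was 435 ± 51.1. The lowest of complex I was Ndufb2, at 2.62 ± 0.176 in kidney and 3.63 ± 0.900 in liver, over a joined exon length of 5628 bases. Before division by length it was 14.8 and 20.4 CPM. Ndufb2 shares 145 exonic bases with Gm42420 on the same strand. It also shares 146 with Braf and 156 with Gm16272 on the opposite strand. Some of its reads may have been left out or counted elsewhere, which was not tested. The lowest of complex III was Uqcrc2 (89.2 ± 7.11 and 84.7 ± 4.31), and of complex V Atp5s, a coupling factor (6.23 ± 0.458 and 3.70 ± 0.798).

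In each family of complex IV isoforms the ubiquitous gene held most of the signal in both wild-type tissues. On the per-kilobase scale Cox4i1 was 464 and Cox4i2, the hypoxia-responsive isoform, 1.22 ± 0.346 in kidney, and 669 and 0.168 ± 0.110 in liver. Cox6a1 stood beside Cox6a2 at 1.32 ± 0.189 in kidney and 0.111 ± 0.150 in liver. Cox6b1 was 423 ± 39.9 in kidney and Cox6b2 4.49 ± 0.161, and in liver 549 ± 89.5 and 0.432 ± 0.236. Cox7a2 was 234 ± 14.7 and Cox7a1 19.8 ± 2.27 in kidney, and 334 ± 39.6 and 5.66 ± 1.68 in liver. Cox8b was 4.73 ± 2.98 in kidney and 0.327 ± 0.362 in liver, with a wide spread between kidneys, against 810 and 613 for Cox8a. Among the c-ring genes, which encode the same mature protein, Atp5g3 was 261 ± 26.3, Atp5g2 63.4 ± 7.18 and Atp5g1 46.5 ± 3.63 in kidney. In liver they were 325 ± 65.0, 85.3 ± 9.05 and 66.2 ± 7.07, in the same order.

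**Figure D5:**
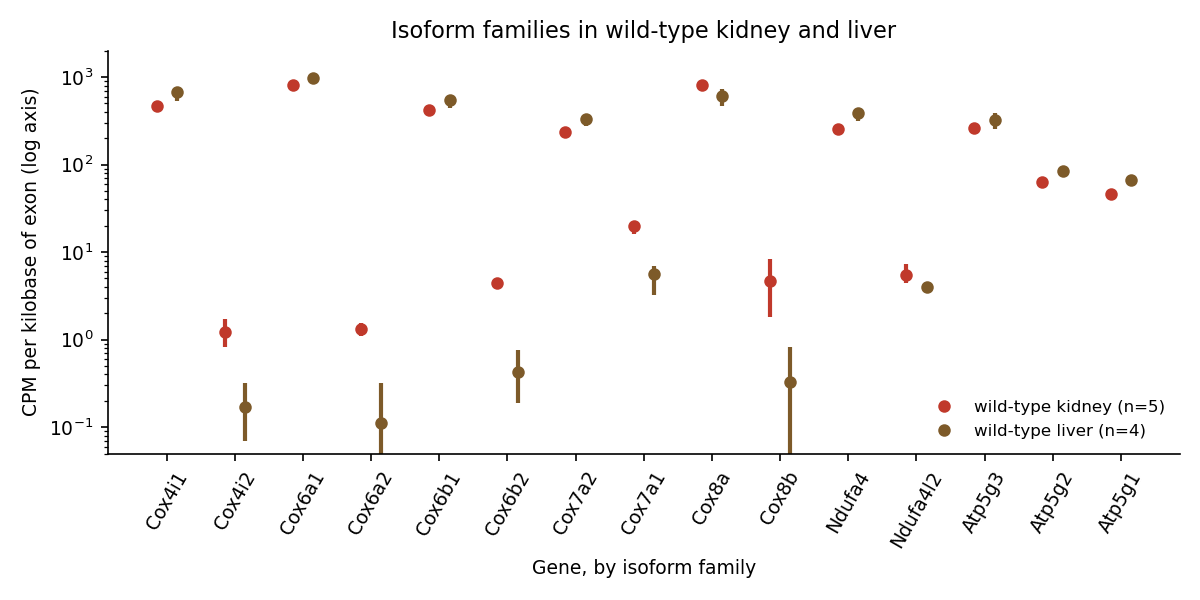
Level of isoform families in wild-type kidney (n = 5) and liver (n = 4), as CPM per kilobase of exon on a log axis, with points at the mean and lines from the lowest to the highest library (values of 0 drawn at the lower edge). Cox4i2, Cox6a2, Cox6b2, Cox7a1 and Cox8b lie far below their ubiquitous partners in both tissues.

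Between wild-type kidney and liver the direction of most members depended on the scaling. With TMM, 55 of 76 members passed an adjusted p of 0.05 with edgeR, 11 higher in kidney and 44 higher in liver, where 41.6% and 33.9% of all genes passed in those directions. With library totals 60 were called higher in kidney and 1 higher in liver, and the split over all called genes went from 55.1% to 84.2% higher in kidney. That scaling moved the median of all genes from 0.14 to 1.03 (log2, kidney over liver) and the median of the members from -0.37 to 0.52. Relative to the median of all genes, the members lay at -0.51 under both, and 63 of 76 were below it under both. A change of scaling moves all genes by nearly the same amount, so this position could hardly differ between them.

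The members higher in kidney under both scalings included the muscle and other tissue isoforms of complex IV. The log2 differences with TMM were 3.73 for Cox8b, 3.62 for Cox6a2, 3.36 for Cox6b2, 2.78 for Cox4i2 and 1.81 for Cox7a1, and relative to the median of all genes 3.60, 3.48, 3.22, 2.64 and 1.67. Their liver counts were near 0 apart from Cox7a1, so those folds depend on the few liver reads. Atp5s (0.75), Ndufs1 (0.49), which carries iron-sulfur clusters, Atp5b (0.40) and Cox8a (0.40) were also higher in kidney under both. At the other end, Uqcrq was -1.63 (SE 0.13, adjusted edgeR p 1.85e-08) with TMM and -0.74 (SE 0.12) with library totals, and it was the only member called higher in liver under both. Ndufa7, a complex I accessory subunit, was -0.97, Atp5e, the epsilon subunit of F1, -0.95 and Cox7a2l -0.76 with TMM. Relative to the median of all genes they were -1.11, -1.09 and -0.89, and with library totals their differences were -0.08, -0.06 and 0.13. Uqcrc2, the least different in complex III, was 0.08 with TMM. With mouse number as a block, 2 more named members passed the threshold, Atp5a1 at 0.25 and Uqcr10 at -0.19.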

How the data were processed

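Poly(A) RNA of 10 kidneys and 9 livers was sequenced. Per the submitters' processing notes the tools were Trim Galore, STAR, featureCounts and DESeq2 with build GRCm38, without versions. The deposited values are raw counts per gene made by the authors, and the table holds genes with a total count of at least 10. The strand setting is not given in the sources used here. Totals were 25919138 to 35131720 counts in kidney and 26084473 to 34806035 in liver.

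Knockouts were compared with wild types in each tissue with edgeR 4.0.16 (R 4.3.3), using TMM scaling, filterByExpr (minimum count 10) and the quasi-likelihood test. The tissue difference and wild-type kidney against liver were fitted in the same way. P-values were adjusted over all genes tested by the Benjamini-Hochberg method, with a threshold of 0.05. Scores used log2 CPM with a prior count of 2. Alternatives were DESeq2 1.42.0, limma voom (limma 3.58.1), other scalings and filters, a mouse-number block and leaving out mice. The scripts were tested on simulated data.

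The members, gene lists and rules were chosen with earlier results of these data known. The members named are, in each tissue and complex, those with the smallest p and the largest change, those with the smallest p for the tissue difference, those whose groups do not overlap, core subunits of complexes I and III, isoform families, Atp5a1, Atp5b, and per complex the highest and lowest wild-type levels and largest differences between wild-type tissues; Ndufa2 and Ndufs6 were named after their values or promoters were seen. Mouse numbers were judged to pair tissues where every same-numbered pair had a correlation of deviations over 0.1. In wild types all 4 pairs did (lowest 0.112), and in all 9 mice only 7 did. The main fits between tissues still did not use the pairing, and mouse number as a block was an alternative. 1 member that the rule names is not reported here by name; it remains in the counts and medians over all members. Promoters came from RefSeq (GRCm38.p6).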

Additional observations from a re-analysis of the deposited data

Results flagged for a closer look

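In 3 groups 1 library lay far from the others, by Dixon's test at the 95% level, among 196 groups checked; chance marks about 1 in 20. In kidney, knockout 15 had the highest Atp5g2, at 153.3 CPM against 118 to 122.9 in the other knockouts, and the highest Cox4i2, at 1.645 CPM against 1.108 to 1.25. In liver, wild-type 22 had the lowest Cox4i1, at 586.2 CPM against 763.5 to 799 in the other wild types.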

How the results depend on the processing

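Over the alternatives run, no member passed the threshold for knockout against wild type in kidney or liver, or for the tissue difference. Over all genes, edgeR called 1, 0 and 0 in these comparisons, DESeq2 15, 42 and 8, and limma voom 4, 5 and 0. Leaving out 1 mouse gave 48 to 71 members lower in kidney and 44 to 69 higher in liver; with mice 18 and 24 left out, chosen after seeing the data, 42 were higher in liver. The number of kidney members with an unadjusted p under 0.05 was 10 without mouse 14, and 14 for the tissue difference. The share of all genes under that p was not taken in these fits, so the counts have no background. Leaving out 1 mouse moved the kidney complex IV median from -0.09449 to 0.01674 and the liver complex V median from -0.009767 to 0.15. Among named members, 21 of 46 in kidney, 21 of 42 in liver and 13 of 46 in the tissue difference changed sign under some alternative.

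With TMM 29 named members lay below 0 for wild-type kidney over liver, 21 of them called, and with library totals all 29 lay above 0. Of these, 18 were called in opposite directions by the 2 scalings, and 8 were called with library totals only. The values with library totals were Atp5f1 0.53, Atp5g1 0.38, Atp5g2 0.46, Atp5g3 0.57, Atp5l 0.25, Cox4i1 0.36, Cox5b 0.79, Cox6a1 0.62, Cox6b1 0.51, Cox7a2 0.38, Cox7a2l 0.13, Cox7b 0.41, Cox7c 0.36, Ndufa1 0.77, Ndufa3 0.47, Ndufa4 0.28, Ndufa5 0.75, Ndufb2 0.42, Ndufb3 0.76, Ndufb5 0.59, Ndufs5 0.21, Ndufs7 0.34, Ndufs8 0.75, Ndufv1 0.81, Ndufv2 0.64, Uqcr10 0.70, Uqcrb 0.43, Uqcrfs1 0.75 and Uqcrh 0.13.

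With mouse number as a replicate block, 73 of 76 members had a tissue difference above 0, with a median of 0.25. An unadjusted p under 0.05 was reached by 4 members, again without a share of all genes beside it. Correlations of same-numbered tissues ran from 0.0493 to 0.311, and 7 of 9 livers correlated best with their own number. Between wild-type tissues the block gave 58 members called, 12 higher and 46 lower in kidney. At 25919138 counts or more a library, depth limits the isoforms near 0 in liver, such as Cox6a2 and Cox8b.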
